A study of Mus musculus with 8 samples.

Results

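Group 2 innate lymphoid cells (ILC2) were described here across genes in the meninges and brain of mice after experimental stroke. The members were the cells that the authors' deposited annotation placed in the cluster ILC2, which held 1195 of 32457 annotated cells (3.68%). Of these, 959 (80.3%) came from the dura, 118 (9.87%) from the pia and 118 (9.87%) from the brain parenchyma. The annotation had been made from the same expression values, so the genes that set ILC2 apart from other clusters are given below as a description without a test.

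The study used adult male C57BL/6 mice without transgenes and sequenced leukocytes that carried CD45 but had not been stained by a CD45 antibody injected into the blood shortly before perfusion, which leaves out cells in the vessels. Groups were control mice (brain, pia and dura, 1 library each), mice 24 h after transient middle cerebral artery occlusion (MCAO), a model of stroke in which a brain artery is blocked and then reopened (brain, 2 libraries, pia and dura, 1 each), and mice 72 h after MCAO (brain, 1 library). The study's methods give the controls of the sequenced libraries as naive mice, whereas figure legends call them sham-operated. Mice of repeated experiments were pooled for each compartment, but neither the mice nor the occlusion time is given library by library. With 1 dura library per condition, library and condition cannot be told apart in the dura, and p-values from fits over all libraries measure the spread between libraries only.

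ILC2 are tissue-resident lymphocytes that carry no rearranged antigen receptor. They depend on the transcription factors GATA3 and RORα, and they sense tissue signals such as interleukin-33, interleukin-25, thymic stromal lymphopoietin, lipid mediators and neuropeptides. When stimulated they release type 2 cytokines such as interleukin-5 and interleukin-13 together with the growth factor amphiregulin, and they are known residents of the meninges, where they lie in the dura near the venous sinuses.

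Several libraries needed a check before their values were used. The control pia library carries a title that names brain parenchyma while its other labels name pia; microglia of its largest microglia cluster made up 7.37% of its cells against 43.4% in the control brain and 5.05% in the pia at 24 h. The study lists kit version 3 for the dura at 24 h and the brain at 72 h and version 2 for the others. Cell barcodes did not follow that list: the dura at 24 h shared 18 barcodes with control dura, whereas brain 24 h replicate 2 and brain 72 h shared 13 with each other and at most 2 with any other library. The same pair also stood apart in the share of ILC2 UMIs (unique molecular identifiers, each standing for 1 captured transcript) from ribosomal protein genes, at 29.7% and 29.8% against 17.6% to 20.4% elsewhere. Both dura libraries lay in the second range, at 17.95% in control and 17.6% at 24 h. Over the 28 pairs of libraries at most 43 barcodes (0.995%) were shared, and 1 barcode was shared between ILC2 of different libraries, those of pia and dura at 24 h.

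Depth per library ranged from 6591898 to 20754181 UMIs. ILC2 had a median of 914 UMIs per cell in control dura and 885 at 24 h. Medians in the same libraries were 1009 and 888 in T cells and 930 and 805 in B cells. The summed UMIs of dural ILC2 were 275468 and 610720. Sums elsewhere were thinner: 35796 (control) and 100550 (24 h) in the pia, and 8935 (control), 17638 and 70586 (24 h) and 104382 (72 h) in the brain. Control brain held 8 ILC2 and was kept out of every fit across genes. Levels are given as counts per 1000000 summed ILC2 UMIs of a library (CPM), and intervals are exact 95% intervals for counting error only, except those of differences between shares, which are Newcombe intervals.

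ILC2 were most frequent in the dura. They made up 10.2% of annotated cells in control dura (Clopper-Pearson interval 9.08 to 11.4) and 14.9% at 24 h (13.9 to 15.97). In the pia they made up 1.17% in control and 2.17% at 24 h. In the brain they made up 0.186% in control, 0.262% and 0.836% at 24 h, and 1.14% at 72 h. Every stroke library thus held a higher share of ILC2 than the control of its tissue, by 4.72 percentage points in dura (3.18 to 6.23), 0.993 in pia (0.368 to 1.6), 0.0757 (-0.137 to 0.292) and 0.650 (0.339 to 1.02) in the brain at 24 h, and 0.955 (0.655 to 1.27) in the brain at 72 h. An exact two-sided permutation test of the mean difference within tissues gave p = 0.125 over 16 assignments of the 8 libraries, and the smallest p this design allows is 0.0625. The dura difference was smaller among cells with at least 1000 UMIs, as given with the processing below. Shares depend on all other cells of a library. Among the lymphoid clusters of the dura alone, ILC2 made up 26.0% in control and 28.7% at 24 h. That difference was 2.66 points, and its interval included 0 (-0.557 to 5.79). The share of T cells (Tc) among annotated dura cells was also higher at 24 h, at 14.2% against 11.7%. Of pial lymphoid cells ILC2 made up 11.7% in control and 14.5% at 24 h. Of brain lymphoid cells they made up 11.8% in control and 16.7% in 24 h replicate 1. They were lower than control in 24 h replicate 2 (6.64%) and at 72 h (10.3%). The share of Tc among annotated brain cells was 0.721% in control, 0.720% and 3.84% at 24 h and 4.12% at 72 h.

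**Figure D1:**
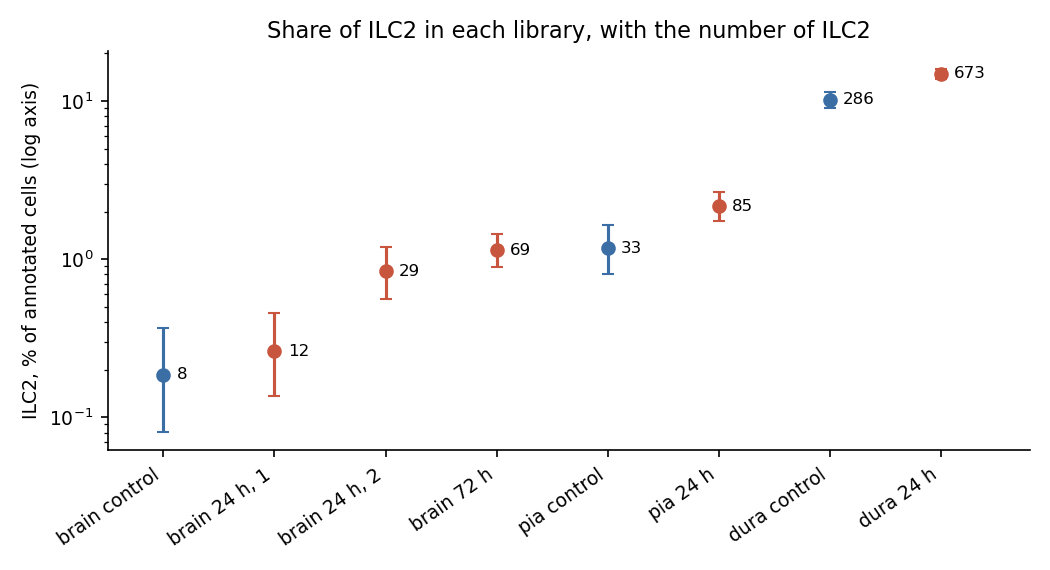
ILC2 as a percentage of annotated cells (vertical axis, log scale) in each of the 8 libraries, with exact 95% binomial intervals for counting error and the number of ILC2 beside each point (blue, control; red, stroke). The dura libraries lie at 10.2% and 14.9%, above the 0.186% to 2.17% of all brain and pia libraries.

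The study lists Gata3 and Rora as the markers of this cluster, so their levels describe it and do not check the label. Gata3, the master transcription factor of type 2 lymphocytes, was present in ILC2 of every library, at 1194 and 910 CPM in dura (control before 24 h, as in all pairs of values below), 838 and 776 in pia and 479 to 895 in the brain. Rora, which encodes RORα, stood at 908 and 1185 CPM in dura, 615 and 945 in pia and 224 to 1063 in the brain. Gata3 belonged to the 20 genes of 2815 (0.71%) that were at least 4-fold above both Tc and gamma-delta T cells (gdTc) of the same library in each of the 4 libraries with enough cells. Rora did not, since dural gdTc carried it at 544 and 594 CPM.

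The genes that lay farthest above both T cell clusters included receptors and effectors of ILC2. Hes1, a Notch-induced transcription repressor, led with a lowest log2 ratio of 5.69 over Tc and gdTc, followed by Hs3st1, a heparan sulfate sulfotransferase (4.28), Rnf128, an E3 ubiquitin ligase (4.18), Areg, which encodes amphiregulin (4.08), and Il1rl1, which encodes the interleukin-33 receptor ST2 (3.77). Calca, which encodes the neuropeptide CGRP and calcitonin (3.02), Ccdc184 (2.81), the prostacyclin receptor gene Ptgir (2.78), Il13 (2.78) and the chemokine gene Ccl1 (2.78) completed the 10 highest. At the other end lay T cell and cytotoxic genes: Cd3d was never closer than a log2 ratio of -3.90, and Gzmb (-3.25), Cd3e (-2.77), Trac (-2.49) and Cd5 (-2.15) followed. Ptgdr2, the prostaglandin D2 receptor gene often used to mark ILC2, had 0 UMIs in all libraries, which in dura at 24 h allows up to 4.91 CPM.

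**Figure D2:**
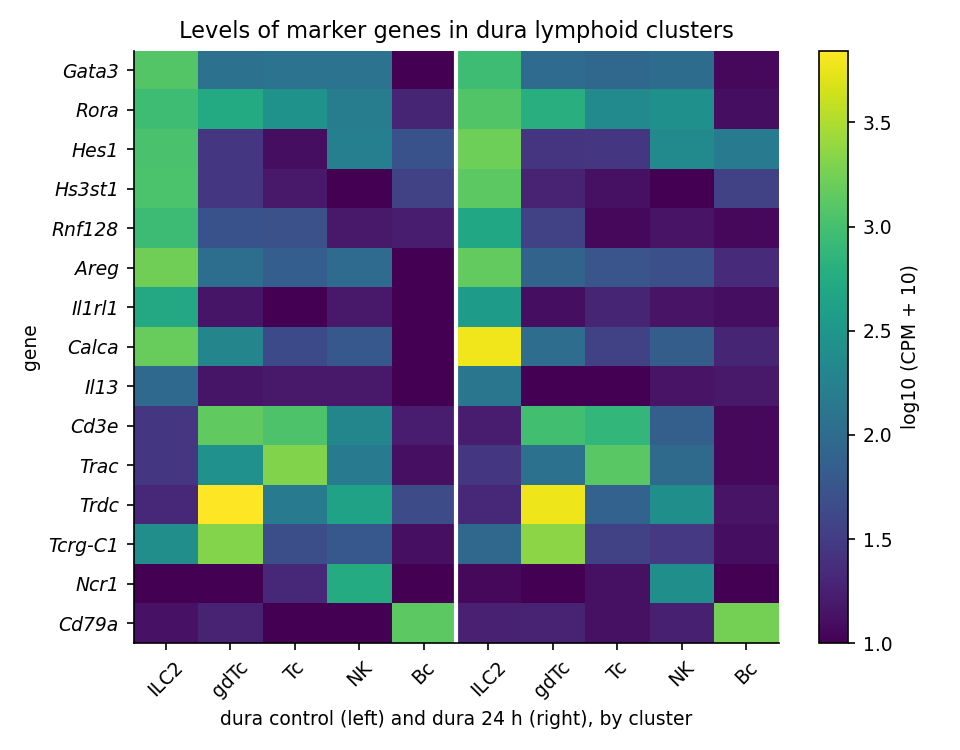
Levels of 15 marker genes (rows) in ILC2, gdTc, Tc, NK cells and B cells (columns) of control dura (left) and dura at 24 h (right), as log10 of CPM plus 10 by color. Gata3, Hes1, Areg and Il1rl1 are brightest in ILC2, where Cd3e lies at 18.2 and 6.55 CPM.

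T cell receptor transcripts were nevertheless present in the cluster. With each cell thinned to 500 UMIs, a UMI of Cd3d, Cd3e or Cd3g was found in 7.34% of ILC2 in control dura and 4.01% at 24 h, against 83.0% and 80.3% of Tc, and in the pia in 27.3% of the 33 control ILC2 and 11.8% at 24 h. Constant genes of the alpha-beta receptor were found more often, in 37.1% of ILC2 in control dura and 29.9% at 24 h. The shares were 86.0% and 83.4% in dural Tc and 2.61% and 1.37% in dural B cells. In pial ILC2 they were 39.4% in control and 32.9% at 24 h. Constant genes of the gamma-delta receptor were found in 17.1% of ILC2 in control dura and 11.3% at 24 h. The T cell list summed to 1619 CPM in control dura and 1217 at 24 h (12 of 14 genes with a UMI in each, Trbc1 the most abundant at 592 and 429 CPM), and the gamma-delta list to 577 and 382 CPM, with Il17a, Il17f, Il1r1 and Sox13 at 0 in both. Both lists were thus lower at 24 h, and their part in the differences below was not tested. Markers of ILC3 were close to 0 (Il22 at 0 in all libraries), as was Foxp3 in dura (0 in both libraries).

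Transcripts of other cells were found in dural ILC2 as in their neighbours. The neutrophil list summed to 171 CPM in control dura and 401 at 24 h, led by S100a8 (76.2 and 190 CPM) with Csf3r at 0 in both, and in Tc of the same libraries it summed to 165 and 373 CPM. The macrophage list stood at 2606 and 2653 CPM in dura, but at 7599 and 2626 CPM in pia, with Apoe at 4107 and 1193 CPM. All 4 mast cell genes had UMIs in dural ILC2, summing to 167 and 159 CPM, and none had any in the other 6 libraries. The B cell list stood at 751 and 850 CPM in dura, led by Igkc.

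In the dura, 2361 genes had at least 50 UMIs over the summed ILC2 of both libraries. Of these, 67 (2.84%) were at least 2-fold higher at 24 h and 59 (2.5%) at least 2-fold lower, and the median log2 ratio of all was -0.05. Scaling by trimmed means (TMM) moved that median up by 0.12 and gave 98 higher and 30 lower. Several cytokine and peptide genes of ILC2 were among the higher genes. Il5, which encodes the cytokine that sustains eosinophils, had 42 UMIs in control and 453 at 24 h, or 152 and 742 CPM, a log2 ratio of 2.27 (1.82 to 2.77). Calca had 418 and 3677 UMIs, or 1517 and 6021 CPM, a log2 ratio of 1.99 (1.84 to 2.14). Csf2, which encodes GM-CSF, a growth and activation factor for myeloid cells, had 186 and 1214 UMIs, or 675 and 1988 CPM, a log2 ratio of 1.55 (1.33 to 1.79). These 3 genes lie at chromosome 11, 53720794 to 53725106 (Il5), chromosome 7, 114631478 to 114636357 (Calca) and chromosome 11, 54247271 to 54249667 (Csf2) in GRCm38.

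Beside Il5 and Calca, the 10 highest ratios included several genes of low count. Nt5e, which encodes the adenosine-forming surface enzyme CD73, was higher by a log2 ratio of 2.02 (10 and 94 UMIs), and Plaur, which encodes the urokinase receptor, by 1.86 (49 and 397 UMIs). Pdcd1, which encodes the inhibitory receptor PD-1, stood at 58.1 and 188 CPM, a ratio of 1.66 (0.94 to 2.55). Dnajb1, an HSP40 co-chaperone gene, followed the same direction (1.75), as did Ubn1 (2.13), whose product belongs to a histone chaperone complex, Med4 (1.86), a Mediator subunit gene, and Ctla2b (1.71), which shares sequence with Ctla2a so that its count is uncertain. Retnlg, a neutrophil gene, was also among them (1.68, 8 and 60 UMIs), with ratios of 1.20 in Tc and 2.99 in gdTc of the same libraries.

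The lowest ratio belonged to Myo6, an unconventional myosin gene, at 64 UMIs in control and 14 at 24 h (log2 ratio -3.30, -4.29 to -2.49). Ccl1, which encodes a chemokine that binds CCR8, stood at 1833 CPM in control and 291 at 24 h (-2.65, -2.91 to -2.40). Ccr2, the receptor gene for the monocyte chemoattractant CCL2, stood at 508 and 170 CPM (-1.58, -1.96 to -1.20). Serpinb1a, a protease inhibitor gene with close relatives (-2.18), Cysltr1, a cysteinyl leukotriene receptor gene (-1.96), Tcrg-C1, a gamma receptor constant gene (-1.60), Resf1 (-1.49), the histone gene Hist3h2a (-1.49) and Mzt1 (-1.47) were also among the 10 lowest.

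**Figure D3:**
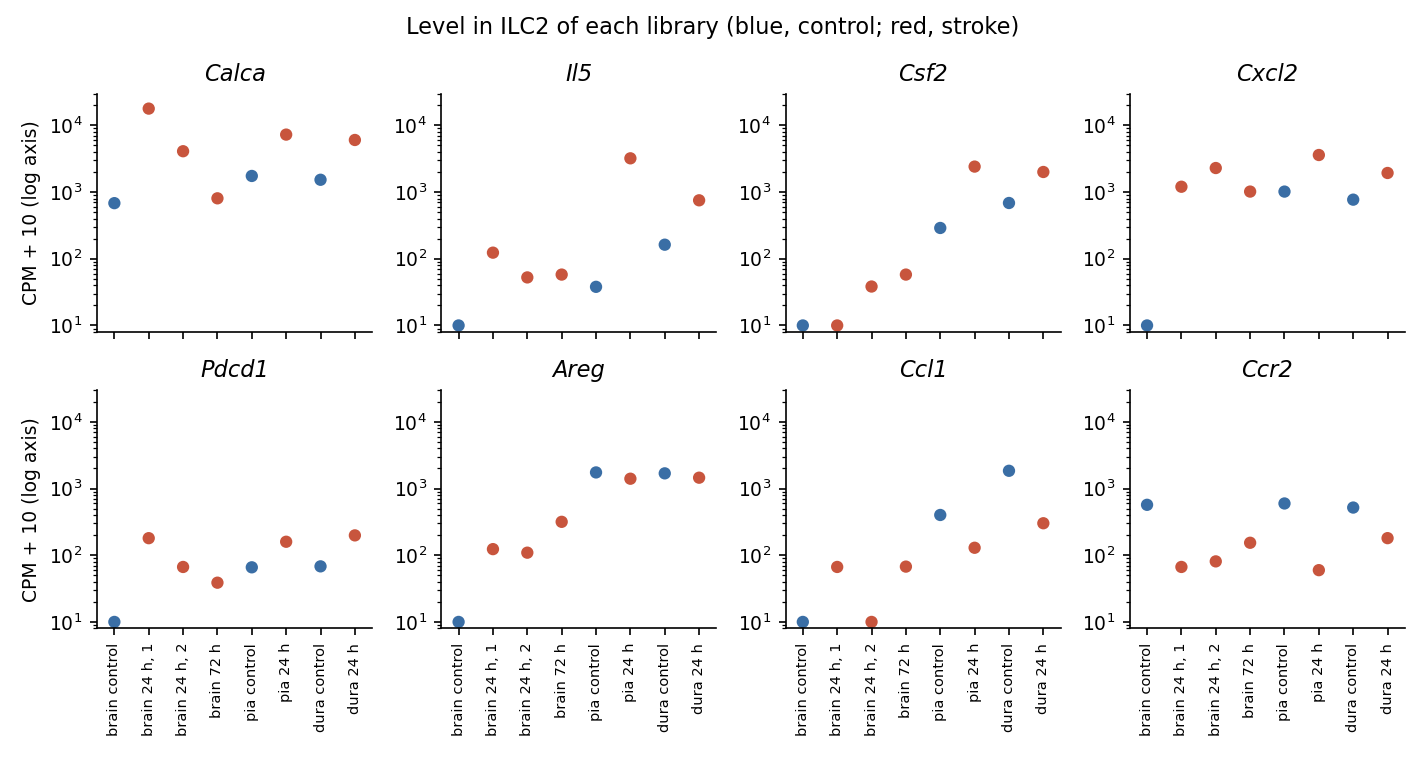
Level of 8 genes in ILC2 of each library, as CPM plus 10 on a log scale (blue, control; red, stroke), 1 point per library without error bars. Calca, Il5, Csf2 and Cxcl2 lie higher at 24 h than in control in dura and pia alike, Ccl1 and Ccr2 lie lower, and Areg stands at 1392 to 1732 CPM in all 4 of these libraries.

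The effectors as a list were split. Of its 21 genes, 13 had 50 UMIs, 3 were at least 2-fold higher (Il5, Calca and Csf2) and 3 at least 2-fold lower (Ccl1, Tnfsf11 and Ltb), beside 2.84% and 2.5% of all genes, and the median log2 ratio was 0.25 against -0.05 for all genes. Il13 stood at 83.5 and 120 CPM (log2 ratio 0.50, -0.18 to 1.26), so its counting interval included no difference, unlike that of Il5. Areg was close to level, at 1677 and 1443 CPM (-0.22, -0.38 to -0.05). Ltb, which encodes lymphotoxin beta, was at 1071 and 516 CPM, and Tnfsf11, which encodes RANKL, at 171 and 63.9 CPM. Odc1, the rate-limiting gene of polyamine synthesis, lay just short of the threshold at 214 and 422 CPM (0.97).

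Receptors of the signals that drive ILC2 were spread on both sides of 0. Of 22 genes 14 had 50 UMIs, with 3 higher and 1 lower (2.84% and 2.5% of all genes) and a median of 0.13. Il17rb, a subunit of the interleukin-25 receptor, stood at 61.7 and 136 CPM (log2 ratio 1.11), and Il2rb, an interleukin-2 and interleukin-15 receptor subunit gene, at 83.5 and 170 CPM (1.00). The lower gene was Cysltr1. Il1rl1 was lower by less than the threshold (512 and 365 CPM, -0.49), as were Il7r (497 and 360 CPM), Il2ra (211 and 142 CPM) and Icos (643 and 436 CPM). Of the CGRP receptor, Ramp1 stood at 370 and 400 CPM while Calcrl had 2 and 1 UMIs. Nmur1, the neuromedin U receptor gene, had 1 and 0 UMIs.

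Of the genes of residence and traffic, 10 of 18 had 50 UMIs, with 1 higher and 1 lower (2.84% and 2.5% of all genes) and a median of 0.52. These were Klf2, a transcription factor gene of recirculating lymphocytes, which was higher (174 and 372 CPM, log2 ratio 1.08), and Ccr2, which was lower. Cxcr6, a receptor for the chemokine CXCL16, stood at 1521 and 1007 CPM, and S1pr1, the receptor gene for tissue exit, had 1 and 0 UMIs. The immediate early list had 16 of 21 genes with 50 UMIs, 1 of them higher and 1 lower, beside the 2.84% and 2.5% of all genes. Jun stood at 780 and 1924 CPM (1.30), Atf3 at 160 and 62.2 CPM (-1.36) and Fos at 1648 and 1942 CPM.

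NF-kappaB feedback genes had a median of 0.34 in ILC2 against -0.34 in Tc and -0.23 in gdTc, with none of 9 past 2-fold. In the edgeR fits of the stroke response against that of Tc and gdTc, 0 of 9 and 0 of 8 were called. Of all genes, 0.0386% and 0.221% were called there. An unadjusted p under 0.05 was found for 5 and 2 of the list genes, beside 182 of 5179 and 73 of 2258 of all genes. Nfkbia, the inhibitor gene that NF-kappaB itself induces, stood at 5496 and 8745 CPM. Of 17 interferon genes, 4 had 50 UMIs in ILC2: 2 were past 2-fold lower, beside 2.5% of all genes, among them Ifitm3 (94.4 and 44.2 CPM), and 1 had a ratio above 0. The median over these 4 was -0.92 in ILC2, -1.10 in Tc and -0.96 in gdTc. The fit of stroke against control over 7 libraries tested 3 interferon genes and called 0, with 0 at an unadjusted p under 0.05. Of all 2090 genes it called 0, with 42 at an unadjusted p under 0.05. Heat shock genes (7 of 10 with 50 UMIs, median 0.25, 1 higher), glycolysis and hypoxia genes (7 of 15, median 0.28, none past 2-fold), cell cycle genes (3 of 10, none) and glucocorticoid response genes (6 of 10, median -0.30, Txnip lower) had 2 members past 2-fold among them, beside the same shares of all genes. Of the inhibitory receptors, 3 of 8 had 50 UMIs, with 1 higher and 1 lower beside 2.84% and 2.5% of all genes: Pdcd1 was higher, Cd200r1 lower (214 and 103 CPM) and Klrg1 lay between (69.0 and 121 CPM).

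Tc and gdTc of the same 2 libraries gave a reference for what the dura libraries shared. For the 2361 genes their median log2 ratios were 0.01 and 0.03. Over the genes past 2-fold lower in ILC2 their medians were -0.52 in Tc and -0.49 in gdTc, against -1.15 in ILC2. Over those past 2-fold higher they were 0.08 and 0.34, against 1.25 in ILC2. The ILC2 medians are set apart by the choice of these genes, and Tc and gdTc shared part of the lower ratios. Calca stood at 33.1 and 26.4 CPM in Tc and at 185 and 93.4 CPM in gdTc, so its dura ratio exceeded the mean of theirs by 2.65. Pdcd1 exceeded it by 2.46, part of which was its lower level at 24 h in the other clusters: it stood at 58.1 and 188 CPM in ILC2, 306 and 122 CPM in Tc (log2 ratio -1.32) and 826 and 685 CPM in gdTc (-0.27). Its level in ILC2 was below that in gdTc in both dura libraries. The ratio was also higher for Tuba1a, an alpha-tubulin gene (by 1.80), Cxcl2, which encodes a chemokine that attracts neutrophils (by 1.75), and Nab1, a co-repressor gene (by 1.66). Cxcl2 (chromosome 5, 90903871 to 90905938) stood at 759 and 1921 CPM in ILC2, 91.0 and 79.3 in Tc and 208 and 136 in gdTc. The differences were most negative for Serpinb1a (-2.37), Mrps15 (-1.94), Kdelr1 (-1.91), Usp34 (-1.41) and Rnf130 (-1.40). The dura ratio of Usp34 in ILC2 changed sign after thinning, as given with the processing below. Plaur was shared in part, with ratios of 1.5 in Tc and 0.37 in gdTc, and for Il5 these clusters held 0 or 1 UMI per dura library.

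**Figure D4:**
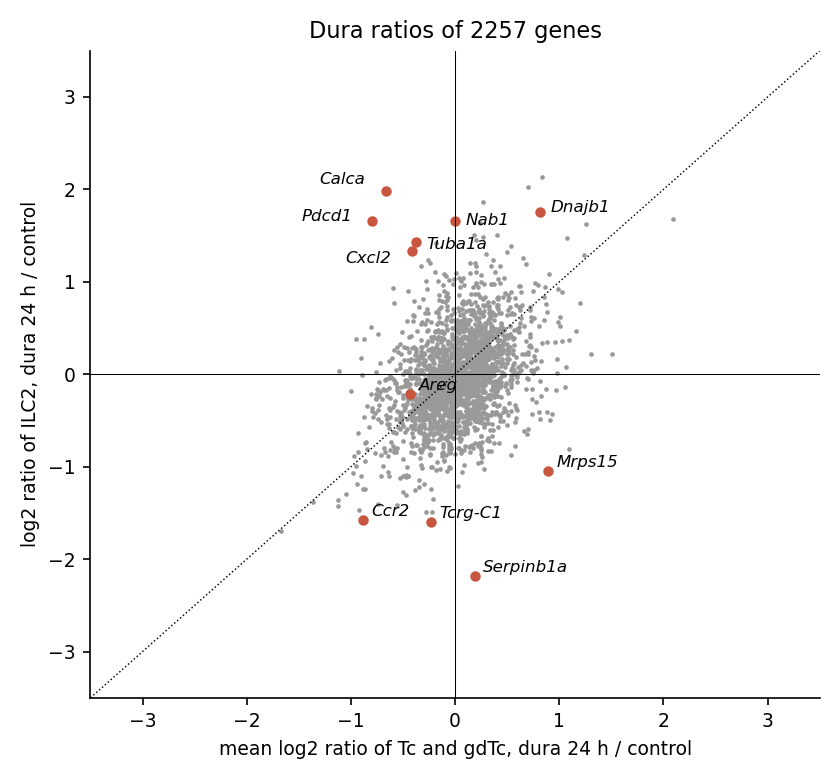
Log2 ratio of 24 h over control dura in ILC2 (vertical axis) against the mean of the same ratio in Tc and gdTc (horizontal axis), 1 point for each gene with at least 50 UMIs in ILC2 and 20 in each of the others, with a dotted line of equal ratios. Calca lies 2.65 and Pdcd1 2.46 above that line, and Serpinb1a lies farthest below it.

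The pia gave a second pair of libraries, with 33 and 85 ILC2. Il5 had 1 UMI in control pia and 321 at 24 h (27.9 and 3192 CPM), a log2 ratio of 6.25 with a wide interval (4.35 to 12.1). Csf2 stood at 279 and 2397 CPM (3.03, 2.20 to 4.18), Calca at 1732 and 7250 CPM (2.05, 1.69 to 2.46) and Cxcl2 at 1006 and 3580 CPM (1.81, 1.34 to 2.37). Each of these 4 was higher at 24 h in both tissues. Ccr2 (587 and 49.7 CPM), Ccl1 (391 and 119 CPM) and Tcrg-C1 (587 and 109 CPM) were lower in both. Pdcd1 had 2 and 15 UMIs in pia and an interval that included 0 (-0.69 to 4.59), as did Nt5e with 3 and 9 UMIs (-1.91 to 2.62).

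Of the 67 higher genes in dura, 46 had 10 UMIs in pial ILC2 and 33 of these lay above 0 there, with a median of 0.69; of the 59 lower genes, 31 had 10 UMIs and 28 lay below 0, with a median of -1.26. Among all 1794 genes with 10 UMIs, 851 (47.4%) lay above 0 in pia.

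Brain ILC2 were few and uneven. Calca stood at 672 CPM in control brain, 17802 and 4080 at 24 h and 795 at 72 h, but in brain 24 h replicate 1 a single cell held 311 of the 314 UMIs. Csf2 had 0 UMIs in control brain and replicate 1, 2 in replicate 2 and 5 at 72 h. Areg had 0 UMIs in control brain and stood at 99.2 to 307 CPM in the other brain libraries, against 1392 to 1732 CPM in pia and dura. Ccr2, singled out after its values were seen, stood at 560, 587 and 508 CPM in control brain, pia and dura, the first from 5 UMIs in 8 cells, and at 49.7 to 170 CPM in the 5 stroke libraries. Of 3113 genes with at least 50 ILC2 UMIs over the libraries, 94 (3.02%) had all 3 controls above all 5 stroke libraries in this way. In gdTc, Ccr2 was lower at 24 h too, at 774 and 212 CPM in pia and 627 and 376 CPM in dura.

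The share of ILC2 with a UMI was compared with all cells thinned to 500 UMIs, which left out no ILC2. Calca was found in 34.3% of ILC2 in control dura (28.8 to 40.1) and 67.6% at 24 h (63.9 to 71.1), and in 45.5% (28.1 to 63.6) and 58.8% (47.6 to 69.4) in pia. In B cells, which should lack it, it was found in 0% and 0.685% in dura, with median depths of 930 and 805 UMIs. In pial B cells it was found in 3.33% of 60 control cells and in 0% of 48 cells at 24 h. Csf2 went from 13.3% to 25.9% of dural ILC2 and from 6.06% to 30.6% in pia, Il5 from 3.15% to 10.3% and from 0% to 23.5%, and B cells of the dura had neither. Ccl1 went the other way in dura, 23.8% against 4.75%, and Gata3 was found in 43.7% and 35.1%, Rora in 33.9% and 40.9%. The mean Calca count in cells with a UMI was also higher at 24 h, at 4.45 against 1.94 in dura and 5.72 against 1.53 in pia. Without thinning, 25.0% of dural ILC2 at 24 h had no Calca UMI, against 56.6% in control.

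**Figure D5:**
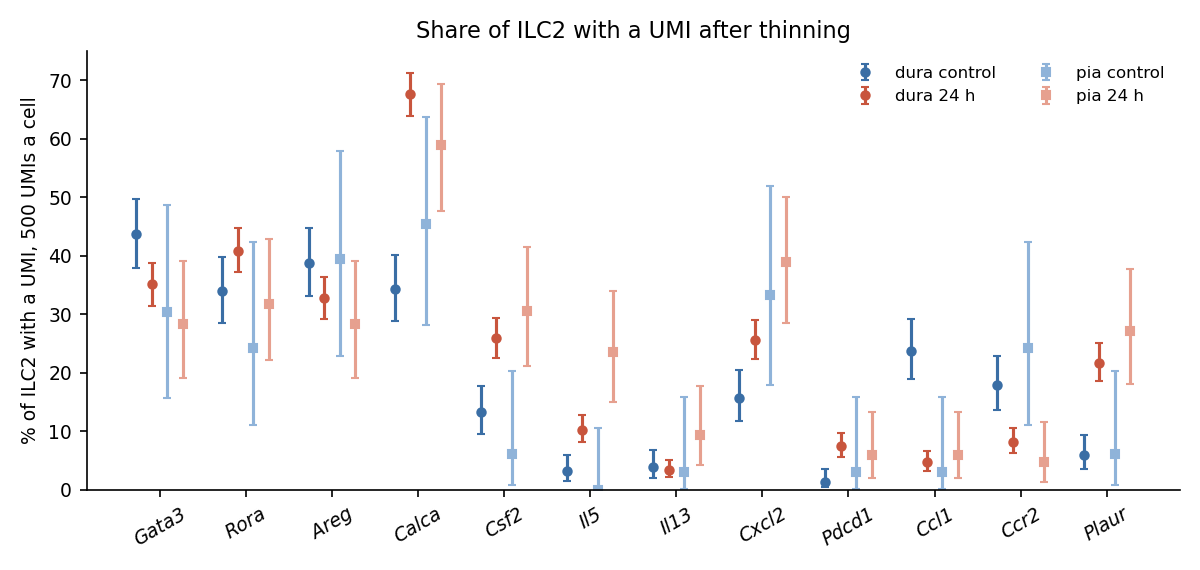
Percentage of ILC2 with a UMI of each of 12 genes after thinning to 500 UMIs per cell, in the dura (circles) and pia (squares) of control mice and at 24 h, with exact 95% binomial intervals for counting error. Calca is found in 34.3% of dural ILC2 in control and 67.6% at 24 h, with intervals that do not overlap, and Ccl1 goes from 23.8% to 4.75%.

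Expression within the cluster was uneven in different degrees. In dura at 24 h the median ILC2 held 3 Calca UMIs and the most 70, and the 68 cells with the most held 46.7% of them. The 68 cells with the most Csf2 held 75.4% of its UMIs, those with the most Il5 held 94.7% and those with the most Gata3 held 40.6%. In pia at 24 h the cell with the most Il5 held 50 of 321 UMIs and that with the most Calca 152 of 729. The values of this paragraph so far were taken without thinning, whereas the shares of cells that follow were taken after the thinning described above. Il5 transcripts went with some genes more than others. Of 69 dural ILC2 with an Il5 UMI at 24 h after thinning, 50.7% had a Cxcl2 UMI (38.4 to 63.0), against 22.7% (19.4 to 26.2) of those without. An Il13 UMI was found in 15.9% of the cells with an Il5 UMI (8.24 to 26.7) against 1.99% of those without (1.03 to 3.44). Calca was closer to even, with Csf2 in 26.4% of cells with a Calca UMI and 24.8% of those without. Cells with a Csf2 UMI carried Areg in 51.7% of cases (44.0 to 59.4) against 26.1% (22.3 to 30.1). These cells came from 1 library, so the shares describe that library.

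Over 7 libraries, with tissue as a term, edgeR's quasi-likelihood test with Benjamini-Hochberg adjustment called 0 of 2090 genes (0%) between stroke and control, with 42 at an unadjusted p under 0.05. DESeq2 also called 0, with 26 such genes. The count depended on the sparsest library in the fit, brain 24 h replicate 1 with 12 ILC2. Without it edgeR called 12 of 1942 genes, 5 higher and 7 lower. A minimum of 30 cells, which also left out brain 24 h replicate 2 with 29 ILC2, gave 42 of 2532. The 3 genes with the lowest p were Il5, Ccr2 and Csf2. Il5 had a log2 fold change of 3.68 ± 0.75 (SE, adjusted p = 0.236), Ccr2 -2.20 ± 0.59 (adjusted p = 0.728) and Csf2 2.29 ± 0.62 (adjusted p = 0.728). These values depended on which pair was kept: on leaving out 1 library the log2 fold change of Il5 ran from 2.29 (without control pia) to 6.90 (without control dura), that of Ccr2 from -3.45 (without dura at 24 h) to -1.53 (without pia at 24 h) and that of Csf2 from 1.57 (without control pia) to 3.21 (without control dura). Over all 14 alternatives Il5 was called in 7 and Ccr2 and Csf2 in 3 each. Calca had 2.08 ± 0.89 and did not pass either (unadjusted p = 0.0326). Brain gave no control to this fit, so the stroke effect rested on the dura and pia pairs. The brain libraries of 24 h and 72 h entered it together as stroke, so any difference between these times counted as spread.

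The barcode list was added as a term in an alternative chosen after seeing the data. There 25 of 3155 genes (0.792%) were called, 14 higher and 11 lower, with 2 residual degrees of freedom. With this term brain 24 h replicate 1 was the only brain library in the fit on its barcode list, so it was fitted exactly. That library, the sparsest, thus added nothing to the spread, and the stroke effect again rested on the dura and pia pairs. That fit also tested more genes than the 2090 above, so its count cannot be put down to the term alone. In that fit Il5 rose by 3.30 ± 0.38 (adjusted p = 2.05e-10), Csf2 by 2.14 ± 0.30 (adjusted p = 1.45e-09) and Cxcl2 by 1.62 ± 0.26 (adjusted p = 3.60e-07). Plaur (2.06), Ctla2a (2.24), Dnajb1 (1.64), Jun (1.19), Odc1 (1.24), Hdc (2.05), which encodes histidine decarboxylase, and Tnfrsf9 (2.54), which encodes the co-stimulatory receptor 4-1BB, rose as well. Ccl1 fell by 2.35 ± 0.35 (adjusted p = 1.97e-08) and Ccr2 by 2.02 ± 0.36 (adjusted p = 7.06e-06). Myo6 (-3.24), Serpinb1a (-2.07), Tcrg-C1 (-1.82) and Actb (-1.03) fell, as did Pf4 (-2.23) and Selenop (-1.43), which macrophages express, beside the lower macrophage list of pia. Among the effectors Il5, Csf2 and Odc1 rose and Ccl1 fell. Il9 was called too, but it had UMIs in pia at 24 h alone, almost all in 1 cell, and passed the low-count filter only through that library. Calca was not called there (log2 fold change 2.09, adjusted p = 0.980).

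Between tissues, 4 of 2090 genes (0.191%) were called, all higher in dura than in brain and pia. Here too the count depended on brain 24 h replicate 1: without it 208 of 1942 genes were called, 125 higher and 83 lower in dura. With sums of at least 30 cells, which left out both brain 24 h libraries, 228 of 2532 were called, 153 higher and 75 lower. Csf2 was higher than the mean of both other tissues by 3.24 ± 0.55 (adjusted p = 0.00726 by edgeR), but its level at 24 h was 1988 CPM in dura and 2397 CPM in pia, and the low tissue was the brain, with at most 47.9 CPM. The others are known from other cell types: Ngp, a neutrophil granule gene (6.72 ± 0.82), and the immunoglobulin genes Igkc (4.68 ± 0.67) and Iglc1 (6.25 ± 0.97). On leaving out 1 library, Csf2 ran from 2.76 (without control dura) to 4.33 (without dura at 24 h), Ngp from 4.54 (without dura at 24 h) to 7.24 (without control pia), Igkc from 4.14 (without brain 72 h) to 8.83 (without dura at 24 h) and Iglc1 from 5.17 (without dura at 24 h) to 8.71 (without brain 24 h replicate 2). None of the 4 was called without dura at 24 h. Ngp stood at 218 and 391 CPM in dural ILC2 and at 185 and 381 CPM in dural Tc.

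The stroke response of ILC2 was then set against that of Tc and gdTc in the same libraries, with a term for each library. Against Tc, 2 of 5179 genes (0.0386%) were called: Cxcl2, by 2.48 ± 0.42 (adjusted p = 1.89e-05 by edgeR), and Pdcd1, by 2.81 ± 0.58 (adjusted p = 0.00393). Cxcl2 ran from 1.61 (without pia at 24 h) to 3.42 (without dura at 24 h) on leaving out 1 library, and Pdcd1 from 1.62 (without control dura) to 3.11 (without control pia). Against gdTc, over 6 libraries, 5 of 2258 (0.221%) were called: Calca by 3.06 ± 0.43 (adjusted p = 2.94e-09), Pdcd1 by 2.11 ± 0.44 (adjusted p = 0.00142), Cxcl2 by 1.99 ± 0.44 (adjusted p = 0.00646), Tcrg-C1 by -1.64 ± 0.34 (adjusted p = 0.00142) and Serpinb1a by -1.93 ± 0.41 (adjusted p = 0.00166). On leaving out 1 library Serpinb1a ran from -1.99 (without pia at 24 h) to -1.19 (without dura at 24 h), while the other 4 moved less. Cxcl2 and Pdcd1 were thus called against both T cell clusters, and both comparisons share the ILC2 libraries. Calca against Tc had a larger adjusted p of 0.0909 (2.76 ± 0.69), with 1 to 16 UMIs in Tc of pia and dura. Il5 was not called against Tc (0.52 ± 0.98, adjusted p = 1 by edgeR), where pial Tc had 0 Il5 UMIs in control and 13 at 24 h. Nor was it called against gdTc (0.36 ± 0.76, adjusted p = 1 by edgeR), which held 1 Il5 UMI over all libraries. DESeq2 called 0 genes in either comparison, and the gdTc calls needed both dura libraries: without either of them 0 genes were called. Without control pia, the library with the conflicting title, 0 genes were called against Tc, and Calca alone remained called against gdTc (3.07, adjusted p = 7.55e-09).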

How the data were processed

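Single-cell 3' libraries were aligned and counted by the authors with Cell Ranger 6.0 on mm10, per the labels and the submitters' notes. The deposited matrices hold raw UMI counts, and a deposited table gives the authors' cluster of each cell. The authors removed doublets and cells by gene number and mitochondrial share. Their clusters were used unchanged, and counts were summed per library and cluster. Ratios used CPM with 0.5 counts added and at least 50 UMIs over both sums. Sums of at least 10 cells entered edgeR 4.0.16 quasi-likelihood fits with TMM scaling and tissue or library terms; calls needed a 2-fold change and an adjusted p under 0.05. DESeq2 1.42.0 was an alternative, with R 4.3.3, Python 3.11.15 and seed 20220217. On simulated data edgeR recovered 41.5% of 200 genes changed 4-fold in the stroke comparison over 2090 genes. Intervals of shares are Clopper-Pearson, those of share differences are Newcombe's from Wilson bounds, and those of ratios come from exact binomial bounds; all cover counting error only, as does the floor of 3 counts. Named genes were the 10 highest and 10 lowest dura ratios, the 5 most different from Tc and gdTc on each side, the 10 identity genes, called genes and lists by role. Members and lists were chosen with earlier results of these data known. Gene positions are from GENCODE M21. Some genes that this rule names are not reported here.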

Additional observations from a re-analysis of the deposited data

Results flagged for a closer look

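Stroke responses that differed between ILC2 and another lymphoid cluster of the same libraries were singled out by the test of the difference itself, given as log2 differences with edgeR's adjusted p. Cxcl2 differed from Tc by 2.48 (adjusted p = 1.89e-05) and from gdTc by 1.99 (adjusted p = 0.00646). Pdcd1 differed from Tc by 2.81 (adjusted p = 0.00393) and from gdTc by 2.11 (adjusted p = 0.00142). Calca differed from gdTc by 3.06 (adjusted p = 2.94e-09). Tcrg-C1 (-1.64) and Serpinb1a (-1.93) differed from gdTc in the negative direction. Over the alternatives, the call for Calca held in 7 of 11, that for Cxcl2 against Tc in 8 of 13 and against gdTc in 4 of 11, that for Pdcd1 in 6 of 13 and 5 of 11, that for Tcrg-C1 in 5 of 11 and that for Serpinb1a in 4 of 11.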

How the results depend on the processing

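The dura share difference of 4.72 points was 2.18 among cells with at least 1000 UMIs and 2.66 among lymphoid clusters. The 126 dura genes past 2-fold became 446 with a minimum of 20 UMIs, 51 with 100 and 66 with cells thinned to 500 UMIs. TMM gave 128, of which 76.6% were higher against 53.2%. The 20 identity genes became 10 with sums of at least 10 cells and 12 after thinning. For stroke against control, 0 calls became 2 without the low-count filter, 42 with sums of at least 30 cells, 1 after thinning, 1 with the kit version as a term and 25 with the barcode list as a term (added after seeing the data). Leaving out 1 library gave 0 to 12, with 12 when brain 24 h replicate 1 was left out. The fit with the barcode list also tested 3155 genes against 2090, so the genes tested and the term changed together there. Its term fitted brain 24 h replicate 1 exactly, so that library added nothing to the spread. For dura against brain and pia, 4 calls became 10 with DESeq2, 59 without the filter, 228 with sums of at least 30 cells, 7 after thinning and 72 with the barcode list. Leaving out 1 library gave 0, without dura at 24 h, to 208, without brain 24 h replicate 1. Against Tc, 2 calls became 0 with DESeq2, 6 with library size alone, 4 without the filter, 6 with sums of at least 30 cells, 0 after thinning and 0 with no library block, and 0 to 6 on leaving out 1 library, with 0 without either pia library. Against gdTc, 5 calls became 0 with DESeq2 and 0 with no library block, and 0 to 6 on leaving out 1 library, with 0 without either dura library and 1 without either pia library. The fit with at least 30 cells could not be made there. Among single genes 1 value reversed, Usp34, from -0.87 to 0.27 after thinning. The causes were not tested.

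The groups compared share fewer than 2 replicate numbers, so there was no fit with the replicate number as a block. The library term of the cluster comparisons pairs clusters within a library. Dura and pia had 1 library per condition, so the precision of every ratio is that of counting alone, and brain ILC2 were too few to give a stroke comparison of their own.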

Other observations

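Il9, which encodes a type 2 cytokine that acts on mast cells and on ILC2 themselves, had 171 UMIs in ILC2 of pia at 24 h and 0 in ILC2 of every other library. The level was 1701 CPM against a floor of 83.8 CPM in control pia (3 counts in that library), at least 20.3-fold higher. Only 2 of the 85 cells carried it, and 1 of these held 168 of the 171 UMIs. The other lymphoid clusters of that library had 0 Il9 UMIs. The Il9 call in the fit with the barcode list as a term therefore rested on 1 cell.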
